A study of Mus musculus with 16 samples.

Results

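Replication-dependent histone mRNAs encode the H1 linker histone and the core histones H2A, H2B, H3 and H4. In the gene table as deposited, 59 genes carried a name beginning with Hist1h, Hist2h, Hist3h or Hist4h, and 55 of them had at least 10 counts in 4 of the 8 input and 4 of the 8 footprint libraries. The same rule kept 9529 of 13832 genes in all. The 55 tested genes comprised 5 of H1, 13 of H2A, 15 of H2B, 10 of H3 and 12 of H4. By annotation 48 of them lie on chromosome 13, 5 on chromosome 3, and 1 each on chromosomes 11 and 6. The 4 genes that missed the rule were Hist2h2be (124 counts over the input libraries and 47 over the footprints), Hist1h2aa (17 and 14), Hist1h1t (3 and 4) and Hist1h4m (0 and 7). Hist1h2ba, with 4 to 37 input counts per library, was the least abundant gene to pass in input.

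The libraries came from the RAW264.7 line of mouse macrophage-like cells, left untreated or stimulated with 100 ng/ml lipopolysaccharide (LPS, from E. coli O111:B4) for 15, 30, 45, 60, 75 or 90 min or for 16 h. For each time point 1 library of ribosome-protected footprints and 1 library of input (fragmented cytoplasmic RNA, from a portion of lysate kept aside) were sequenced, 16 libraries in all. Ribosomal RNA was removed by depletion, so that RNA without a poly(A) tail could be retained, and cycloheximide was present from the wash of the cells onward. There was 1 library per group and no untreated culture after 0 min, so hours in culture and hours of LPS cannot be told apart.

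Histone mRNAs of this kind are made mainly in S phase, when new DNA has to be packed into nucleosomes, and are degraded when DNA synthesis ends. They typically lack introns and end in a conserved stem-loop in place of a poly(A) tail. The stem-loop is bound by SLBP, which takes part in their processing, export, translation and decay. In these bulk lysates, fewer cells in S phase and less histone mRNA per cell cannot be told apart.

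The stem-loop is shown for 6 genes because it is the feature that separates these mRNAs from other mRNAs, and because its stem differed between classes. Each line below gives RNA-sense letters written as DNA, 5′ to 3′, from the GENCODE M21 transcripts, with the 16-base stem-loop in capitals and 5 bases on either side. Build GRCm38 (mm10) coordinates follow the order of the lines: chr13:23555782-23555807 (+), chr3:96220413-96220438 (−), chr13:21722501-21722526 (+), chr13:23544927-23544952 (+), chr6:136803993-136804018 (−) and chr13:21735432-21735457 (+).
Hist1h1d: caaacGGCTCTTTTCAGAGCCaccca
Hist2h2ac: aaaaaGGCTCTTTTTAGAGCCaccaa
Hist1h2bm: acaaaGGCTCTTTTCAGAGCCactaa
Hist1h3f: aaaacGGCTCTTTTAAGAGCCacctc
Hist4h4: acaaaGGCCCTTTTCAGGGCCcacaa
Hist1h4j: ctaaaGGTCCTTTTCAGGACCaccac

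A stem-loop was found after the stop codon in 37 of the 41 tested genes whose annotated transcript ran at least 16 bases past it, starting 21 to 54 bases after the stop codon (median 31.0). The form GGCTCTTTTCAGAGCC occurred in 19 of them. The stem began with GGCTC in all 26 H1, H2A, H2B and H3 genes with a stem-loop (3, 7, 9 and 7 genes), with GGCCC in 9 H4 genes and with GGTCC in the other 2 H4 genes, Hist1h4b and Hist1h4j. Of 21877 protein-coding genes, 68 (0.31%) held the consensus anywhere in a coding transcript, and 46 of these had a Hist name. For 14 tested genes the annotation ends too soon after the stop codon to look for it. Other annotated transcripts run far past the stem-loop, with 4931 bases after the stop codon in Hist1h1d and 2515 in Hist4h4. That of Hist1h2bc has 742 bases after the stop codon and no stem-loop.

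Promoters also differed by class. The 120 bases upstream of the annotated start are shown for the H1, H2B and H4 genes with the most input counts, from RefSeq (GRCm38.p6), on the sense strand, with the searched motifs in capitals, at chr13:21780626-21780745 (−), chr3:96269580-96269699 (+) and chr6:136804432-136804551 (−).
Hist1h1b: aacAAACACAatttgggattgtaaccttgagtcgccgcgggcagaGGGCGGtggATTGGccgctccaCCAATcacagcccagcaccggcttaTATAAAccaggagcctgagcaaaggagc
Hist2h2bb: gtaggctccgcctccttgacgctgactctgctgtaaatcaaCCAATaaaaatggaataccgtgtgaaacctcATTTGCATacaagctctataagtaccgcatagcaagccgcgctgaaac
Hist4h4: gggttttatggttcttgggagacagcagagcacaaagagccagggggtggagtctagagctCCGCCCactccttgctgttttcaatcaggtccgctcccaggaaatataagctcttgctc

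Windows of 250 bases upstream were matched for 50 tested genes and searched on both strands for CCAAT, ATTTGCAT (the octamer), AAACACA (the H1 box), GGGCGG (the GC box) and TATAAA. The first, CCAAT, was present in every matched H1, H2A, H2B and H3 gene (5, 12, 14 and 8) and in 3 of 11 H4 genes, against 37.5% of all 27025 genes with a window. The octamer occurred in 5 of 12 H2A and 7 of 14 H2B genes and in no other class, against 1.8% of all genes. Some H2A and H2B genes are divergent neighbours with overlapping windows, such as Hist1h2ae with Hist1h2bg and Hist1h2ah with Hist1h2bk. The same octamer can then count in both classes. The H1 box was in 4 of 5 H1 genes, 1 H2A and 2 H2B genes (7.2% of all genes), and the GC box in 9 of 11 H4, 3 of 5 H1 and 2 H2A genes (35.4%). TATAAA was in 27 of the 50 (14.3%). These are letter matches and say nothing of binding.

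Histone mRNAs were a small and shrinking share of the input. Summed over the 55 genes they took 0.944% of the untreated input counts, 0.975% at 15 min, 0.742% at 30 min, 0.645% at 45 min, 0.643% at 60 min, 0.673% at 75 min, 0.649% at 90 min and 0.157% at 16 h. The share was thus no lower at 15 min, stayed level from 45 to 90 min, and the 16 h library was far below all the others. The footprint libraries gave them a larger share, 1.97% untreated, then 1.82%, 1.53%, 1.19%, 1.21%, 1.31%, 1.39% and 0.338% in the same order. In footprints the lowest share within the first 90 min was at 45 min, and the share at 90 min was above it. With scaling between libraries by TMM, which lines up the typical gene, the 16 h sums were 5.44-fold below untreated in input (95% counting interval 5.33 to 5.55) and 5.36-fold below in footprints (5.29 to 5.44). All intervals on ratios of 2 libraries cover counting error only, and these sums have no replicate check.

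**Figure D1:**
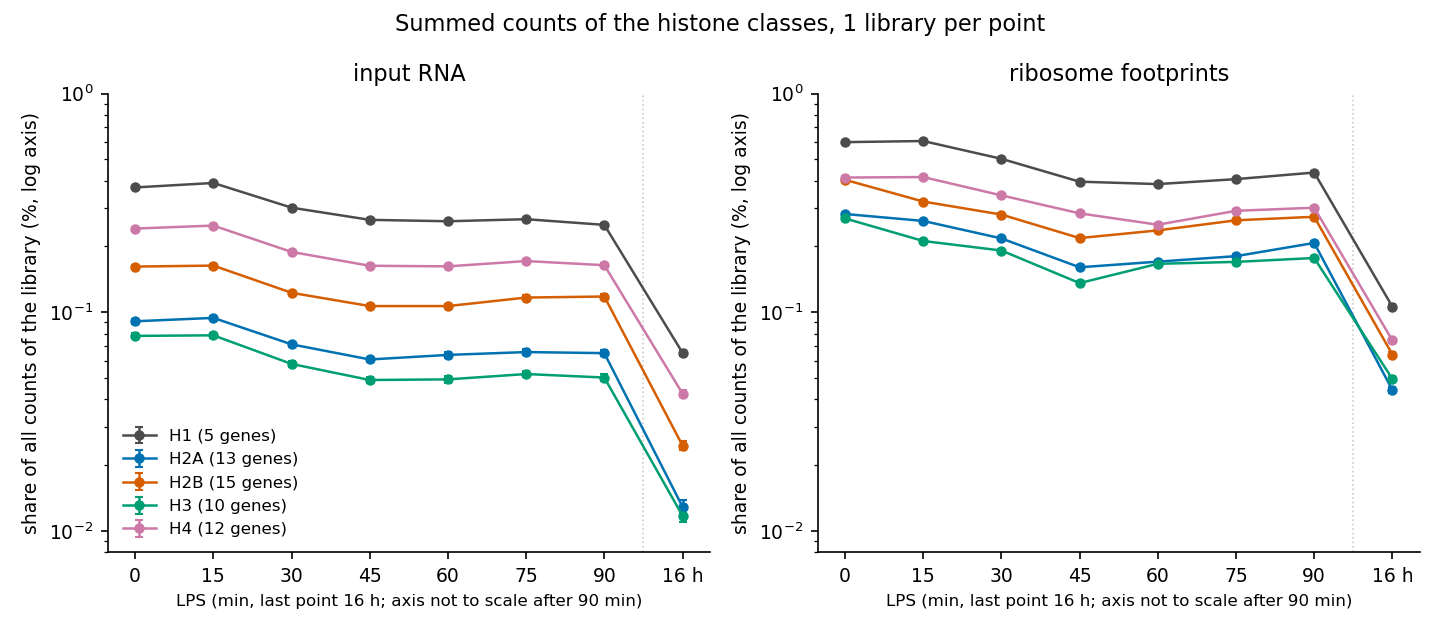
Share of all counts of a library (%, log axis) taken by each histone class at each time of LPS, in input (left) and footprints (right); each point is 1 library and bars are 95% counting intervals, mostly smaller than the points. H1 is the largest class throughout, and all 5 classes are lowest at 16 h.

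The classes moved almost in parallel. H1, with only 5 genes, supplied 38.7 to 41.6% of histone input counts across the 8 libraries and 30.5 to 33.4% of histone footprints. These are shares of counts as deposited, and how reads matching several genes were treated is not known. At 45 min the input sums stood at 73.1% of untreated for H1, 69.5% for H4, 68.8% for H2A, 67.9% for H2B and 64.6% for H3. At 16 h the input sum was 6.38-fold below untreated for H2A (5.94 to 6.86), 6.01-fold for H3 (5.58 to 6.49), 5.95-fold for H2B (5.65 to 6.27), 5.16-fold for H1 (4.99 to 5.33) and 5.14-fold for H4 (4.94 to 5.35). The intervals of H2A, H3 and H2B overlapped each other, as did those of H1 and H4, and the intervals of these 2 sets did not overlap. In footprints the H2A and H2B sums were furthest below untreated (5.88- and 5.80-fold), whereas H3 was nearest to it (5.00-fold, 4.82 to 5.19).

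Over the first 90 min, 39 of the 55 histone genes fell in input and none rose, by edgeR's quasi-likelihood test on a curve in time (adjusted p under 0.05 over all tested genes), where 11.4% of all tested genes fell and 14.6% rose. The median of the largest excursion of the fitted curve was -0.588 on the log2 scale, against -0.058 over all tested genes, with a range from -0.98 (Hist1h3g) to 0.234 (Hist2h2ab). By class, 4 of 5 H1, 8 of 13 H2A, 9 of 15 H2B, 10 of 10 H3 and 8 of 12 H4 genes fell, with class medians of -0.524, -0.638, -0.588, -0.697 and -0.52. Without any test, 51 of the 55 were below the untreated library in all 6 input libraries from 30 min to 16 h (18.3% of all genes). No gene was at least 1.25-fold below untreated at 15 min (5.32% of all genes), 34 were at 30 min (7.83%), 51 at 45 min (10.9%) and 34 at 90 min (21.5%). The fitted curve was furthest from untreated at 45 or 60 min for 24 of the 39 called genes and at 75 or 90 min for 15, among them Hist1h1d and Hist4h4. A straight line in time called 22 of the 39, where 11.2% of all genes fell under the same setting. A curve in the square root of time called 17, where 8.78% fell. Residual scatter about the curve is the only error these tests have.

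**Figure D2:**
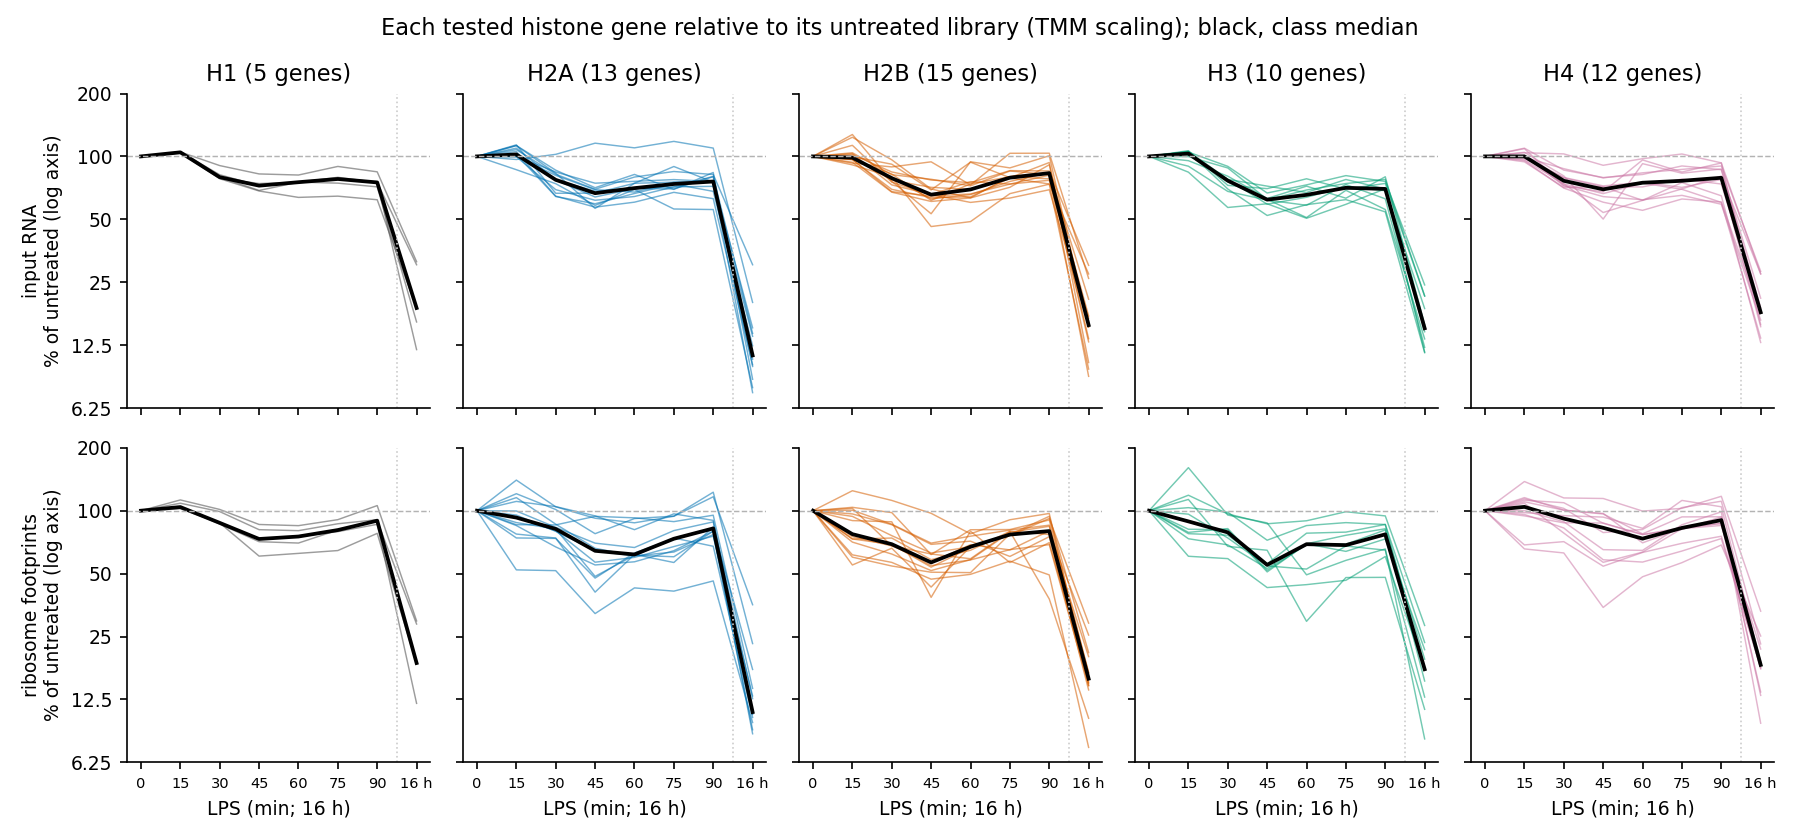
Each tested histone gene as a percentage of its own untreated library (TMM scaling, log axis) by time of LPS, one column per class, input above and footprints below; thin lines are genes and the black line is the class median. Input lines stay near 100% at 15 min and dip at 45 min, footprint lines of H2B and H3 already spread downward at 15 min, and every line ends lowest at 16 h.

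Among the linker histones, which bind the DNA between nucleosomes, Hist1h1b (H1.5) had the most counts. It lies at chr13:21779883-21780625 on the minus strand and is a single-exon coding gene. Its input counts were 7713 untreated, 8064 at 15 min, 6053 at 30 min, 5566 at 45 min, 5521 at 60 min, 5649 at 75 min, 5369 at 90 min and 831 at 16 h. The untreated and 15 min libraries were thus the highest, the next 5 lay within a narrow band, and 16 h was lowest. The curve fell by 0.50 on the log2 scale (SE 0.10, adjusted p = 0.0081). Hist1h1d (H1.3) had input counts of 5409, 5637, 4221, 3596, 3275, 3279, 3103 and 922 in the same order, a continuous decline from 15 to 60 min. Its fall over 90 min was 0.81 (SE 0.10, adjusted p = 0.00049), the largest of the class. Hist1h1a (5085 untreated, 3362 at 90 min) and Hist1h1c (3137 and 2178) also fell. Hist1h1e (H1.4), with 3604 untreated and 2812 at 90 min, had a change of -0.31 that missed the threshold (adjusted p = 0.054).

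H2A pairs with H2B in the nucleosome core. Hist2h2ac, on chromosome 3, had input counts of 1217, 1314, 998, 825, 922, 968, 922 and 334, and its change of -0.47 over 90 min just missed the threshold (adjusted p = 0.053). Hist1h2ac fell by 0.73 (SE 0.13, adjusted p = 0.0049), from 633 counts untreated to 380 at 45 min and 421 at 90 min. Hist1h2ab (771 to 541 at 90 min) and Hist1h2ap (495 to 366) fell too. The exception to the class was Hist2h2ab, also on chromosome 3, whose input counts were 287, 278, 293, 323, 300, 318 and 291 over the first 90 min and 52 at 16 h. No library of its first 90 min stood clearly apart, and its change of 0.23 did not pass (adjusted p = 0.25).

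The H2B gene Hist2h2bb, whose promoter is shown above, had the most input counts of its class, 4107, 4062, 3152, 2842, 2714, 3087, 2967 and 625. It fell by 0.54 (SE 0.10, adjusted p = 0.0064). Hist1h2bm fell further, by 0.84 (SE 0.15, adjusted p = 0.0045), from 1021 counts untreated and 1156 at 15 min to 585 at 60 min. Hist1h2bb (1744 untreated, 1115 at 45 min) and Hist1h2bc (633 and 375) fell as well, and Hist1h2bc was back at 534 by 90 min. Of the H2B genes that were not called, Hist1h2bp had 72 counts untreated and 50 to 70 from 15 to 90 min.

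All 10 H3 genes fell within 90 min. Hist1h3f, at 900 counts untreated, had 961, 653, 614, 669, 590 and 618 over the following time points to 90 min and 175 at 16 h. Its change of -0.57 (SE 0.13) passed with an adjusted p of 0.018, but not without the 75 min library (-0.55, adjusted p = 0.06). Hist1h3c fell by 0.58 (adjusted p = 0.0062) from 1075 counts untreated to 694 at 90 min. Hist1h3b (697 to 404) and Hist1h3d (410 to 303) fell by similar amounts. Hist1h3g showed the lowest value of any histone gene, -0.98 (SE 0.17, adjusted p = 0.0037), with 528 counts untreated and 265 at 90 min.

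All 12 H4 genes had negative changes in input within 90 min and 8 of them were called, a similar part to H2A (8 of 13) and H2B (9 of 15). Hist4h4, the isolated gene on chromosome 6 with the stem beginning GGCCC, had input counts of 4192, 4574, 3032, 2619, 2473, 2563, 2289 and 626 and fell by 0.87 (SE 0.14, adjusted p = 0.0017). Hist2h4 fell by 0.83 (adjusted p = 0.0055), from 1659 counts untreated to 870 at 45 min, and stood at 1235 by 90 min. Hist1h4f fell by 0.52 (2413 untreated, 1646 at 90 min, adjusted p = 0.0054). Hist1h4d, at 2354 counts untreated and 1881 at 90 min, gave -0.36 and did not pass (adjusted p = 0.084). Hist1h4a, with 620 counts untreated and 534 to 647 over the rest of the first 90 min, gave -0.09 (adjusted p = 0.74). The difference between Hist1h4a and Hist4h4 was not tested.

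At 16 h all 55 genes were lower than untreated in input and all 55 passed the test, where 27.7% of all tested genes fell. The changes ran from -3.90 to -1.74 on the log2 scale. Class medians were -2.52 for H1, -3.27 for H2A, -2.81 for H2B, -2.81 for H3 and -2.56 for H4, against -0.012 over all tested genes. The 16 h library was below all 7 earlier input libraries for each of the 55, as it was for 35.0% of all genes. The smallest falls were in Hist1h1e (3604 to 1023 counts, -1.74, SE 0.12, adjusted p = 3e-07), Hist3h2ba (132 to 36, -1.80, SE 0.23) and Hist1h1c (3137 to 861, -1.81, SE 0.15). The largest were in 3 H2A genes with few reads left, Hist1h2an (164 to 11 counts, -3.90, SE 0.41), Hist1h2af (386 to 30, -3.68, SE 0.28) and Hist1h2ai (268 to 19, -3.67, SE 0.25). Within H1 the spread was also wide: Hist1h1b fell by 3.15 (SE 0.14) and Hist1h1a by 2.72 (SE 0.14), Hist1h1d by 2.52 (SE 0.14), and Hist1h1c and Hist1h1e by 1.81 and 1.74. In input counts Hist1h1b was first of the 5 in the untreated library and the fourth at 16 h, where Hist1h1e was first. Coding lengths of the 5 were 636 to 669 bases but annotated transcripts 741 to 7425 bases. This order of counts was not corrected for length.

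**Figure D3:**
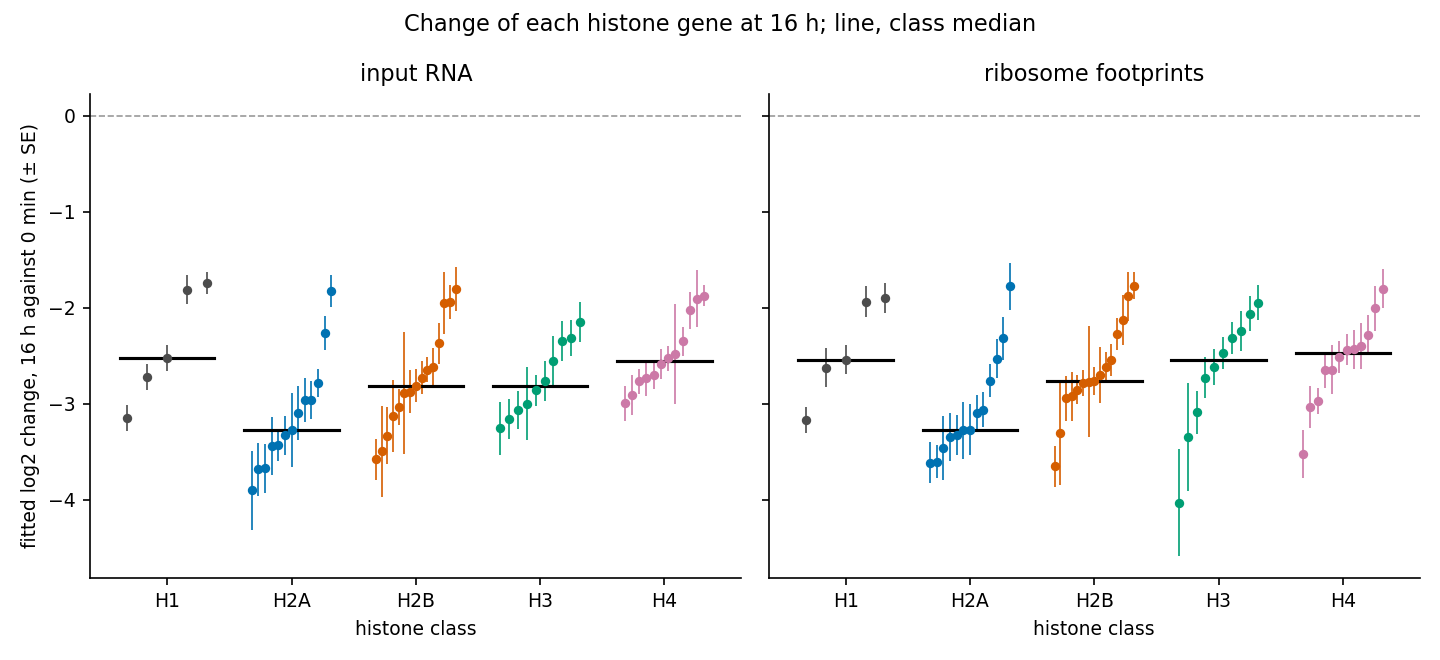
Fitted log2 change of each tested histone gene at 16 h of LPS against 0 min, in input (left) and footprints (right), grouped by class and sorted within it; points are genes, bars are the SE of the fit and black lines are class medians. Every point is below -1.7 in both materials, and the class median is lowest for H2A.

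Footprints followed the input at 16 h. All 55 genes fell in footprints (24.2% of all tested genes fell), with changes from -4.03 to -1.77 on the log2 scale, and the class medians were -2.54, -3.27, -2.76, -2.54 and -2.47 in the order from H1 to H4. The 16 h footprint library was below all 7 earlier ones for each of the 55 (33.2% of all genes). The largest falls were in Hist1h3i (308 to 23 footprints, -4.03, SE 0.55), Hist1h2bf (1647 to 112, -3.65, SE 0.21) and Hist1h2ai (329 to 26, -3.61, SE 0.22). The smallest were in Hist1h2be (2591 to 693, -1.77, SE 0.14), Hist2h2ac (2705 to 886, -1.78, SE 0.25) and Hist1h4c (2517 to 768, -1.80, SE 0.20). Hist1h1b went from 12735 footprints untreated to 1407 and fell by 3.16 (SE 0.14), as far as in input. Hist4h4 went from 6556 to 1071 and fell by 2.65 (SE 0.19).

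Over the first 90 min, 36 of 55 genes fell in footprints and none rose, where 8.30% of all tested genes fell and 12.2% rose. The median change was -0.653, against -0.0694 over all tested genes, and the genes called were 3 of 5 H1, 9 of 13 H2A, 11 of 15 H2B, 8 of 10 H3 and 5 of 12 H4. Hist1h1b, with 12735, 12490, 10243, 8452, 8386, 8742 and 9058 footprints from 0 to 90 min, fell by 0.47 (SE 0.10, adjusted p = 0.019). That call was lost without the 60 min library (-0.42) or the 75 min library (-0.47). Hist4h4 fell by 0.83 (SE 0.15, adjusted p = 0.0045), from 6556 footprints to 3258 at 60 min and 3986 at 90 min. Hist1h2bm (3087 to 1528 at 45 min, -0.79) and Hist1h2ab (2518 to 1339 at 60 min, -0.75) fell by similar amounts. At least 1.25-fold below untreated were 23 genes at 30 min (11.6% of all genes), 41 at 45 min (12.1%) and 23 at 90 min (22.5%). A straight line in time called 6 of the 36, where 6.58% of all genes fell under the same setting. The square root of time called 14, where 6.17% fell. Below untreated in all 6 footprint libraries from 30 min on were 44 of 55 genes (15.5% of all genes), with H4 lowest at 6 of 12.

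At 15 min the 2 materials parted. In input no histone gene was 1.25-fold below untreated, but in footprints 17 of 55 were, where 8.07% of all tested genes were. They were 8 of 15 H2B, 4 of 10 H3, 3 of 13 H2A, 2 of 12 H4 and none of the 5 H1 genes. Hist1h2bc went from 3806 footprints to 2008 while its input counts were 633 and 595. Hist1h2ah went from 682 to 341 while its input counts were 188 and 214, and Hist2h3b from 1014 to 589 with input counts of 254 and 269. All 3 thus had far fewer footprints and a similar input count. The opposite was also seen: Hist2h2ac had 2705 and then 3636 footprints, and Hist1h4c 2517 and 3332. As class sums, footprints at 15 min were 82.2% of untreated for H3 and 82.9% for H2B, 96.9% for H2A, 104.7% for H4 and 105.4% for H1, with input sums of 100.4 to 104.5%. The ratio of footprints to input was at least 1.25-fold lower at 15 min for 16 of 55 genes (11.5% of all genes) and for 7 of 55 at 30 min (16.7%).

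Part of the early footprint change depended on the untreated library. Without it, the 15 min library was the first of the course, and 30 genes were called in footprints, 27 lower and 3 higher (5.9% and 8.74% of all genes), of which 22 were among the 36 called with all libraries. The change of Hist1h2bc over the remaining times to 90 min was 0.70 (adjusted p = 0.042) in place of -0.76, and that of Hist1h2be was 0.32 (adjusted p = 0.019) in place of -0.71. Hist1h2bj also turned to 0.34 (adjusted p = 0.023); it and the 2 others were H2B genes, and it was named after its value was seen. Hist1h2ah (-0.48), Hist1h2bf (-0.28) and Hist1h4n (-0.60) were among those that lost their calls. Hist1h2bc also lost its call without the 45 min library (-0.53). The ratio of footprints to input of the H2B sums was 2.73 untreated, 2.24 at 15 min and 2.73 at 30 min, and that of the H3 sums was 3.77, 3.07 and 3.95, so the 15 min values were below those of both neighbours. Each of these times has 1 pair of libraries.

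**Figure D4:**
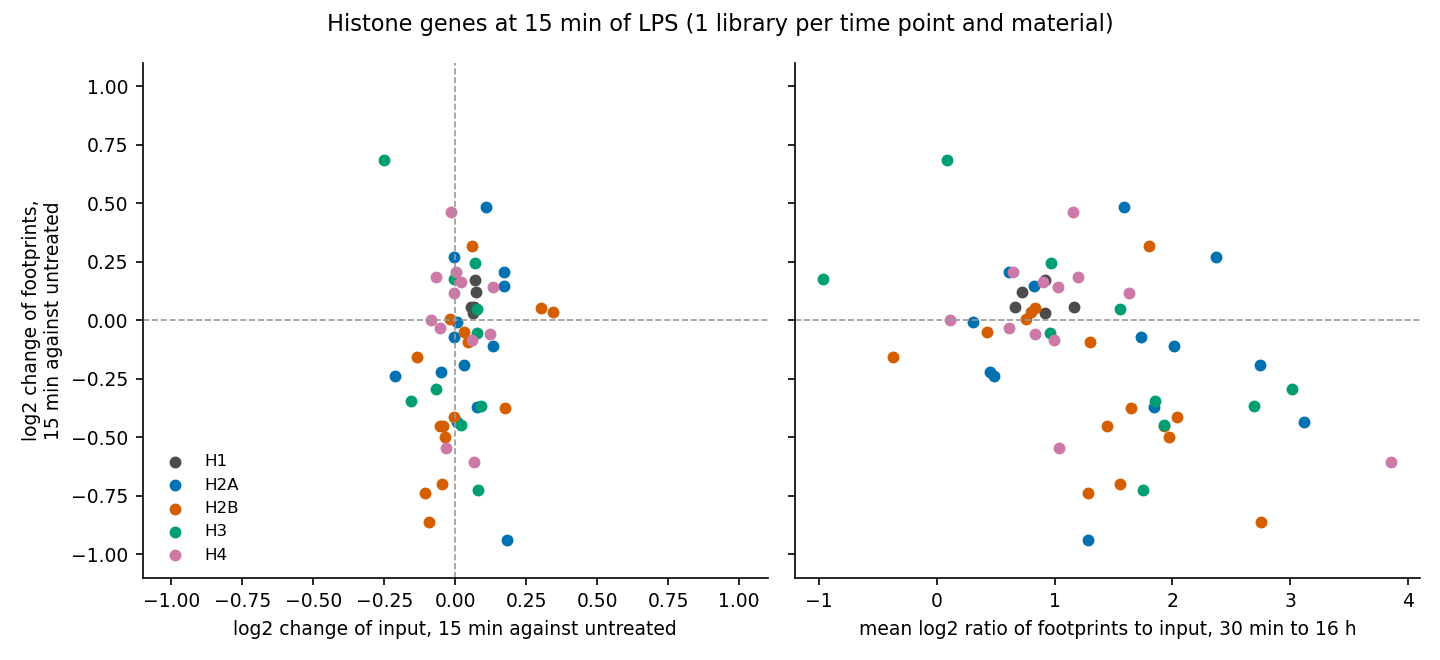
Log2 change of footprints at 15 min against untreated for each tested histone gene, plotted against its change in input (left) and its mean log2 ratio of footprints to input from 30 min to 16 h (right); colours are classes and each point is 1 gene. Input changes lie within -0.25 and 0.343, footprint changes reach below -0.9, and the 5 H1 genes sit just above 0.

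Histone mRNAs carried more footprints per input read than the typical gene. Over all 16 libraries the mean ratio of footprints to input, relative to the typical gene, was higher for 52 of 55 (43.7% of all tested genes) and lower for 2 (41.5%). The median was 1.13 on the log2 scale, against 0.0226 over all tested genes. Class medians were 0.9 for H1, 1.56 for H2A, 1.38 for H2B, 1.63 for H3 and 0.994 for H4. Related lists leaned the same way. Of the replication-independent histone variants 8 of 9 were higher and none lower (median 0.851). Of the DNA replication genes 37 of 47 were higher and 4 lower (median 0.54). The ratio is per read of the whole transcript, and the annotated transcript was under 50% coding for 16 of the 55 genes (8.9 to 99.3%, median 74.4%). Without the time point as a block, 40 histone genes were higher and 0 lower. The calls of the 2 lower genes, Hist1h3h (-0.80, adjusted p = 0.084) and Hist1h2bl (-0.49, adjusted p = 0.26), were lost. The share of all genes called without the block is not given here, so the 40 cannot be set against it.

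The ratio of the class sums kept its order for most of the course. For H1 it lay between 1.75 and 2.10 and for H4 between 1.85 and 2.21. H2B lay between 2.24, at 15 min, and 2.91, H2A between 3.10 and 3.86, and H3 between 3.07, at 15 min, and 4.71, at 16 h. H3 was above H2A at every time except 15 min, and their counting intervals overlapped at 15 min (2.98 to 3.17 and 3.07 to 3.25) and at 45 min (3.13 to 3.39 and 2.99 to 3.21). The 16 h ratio of H3, 4.71 (4.36 to 5.10), was above its untreated ratio of 3.77 (3.65 to 3.88). That of H2A, 3.81 (3.54 to 4.12), was also above its untreated ratio of 3.38 (3.29 to 3.48). The 16 h ratios of H2B, 2.91 (2.75 to 3.08), of H1, 1.81 (1.74 to 1.88), and of H4, 1.95 (1.86 to 2.04), had intervals that overlapped the untreated ones. Such differences were not confined to 16 h. At 90 min the intervals of H1 (2.06 to 2.14), H4 (2.16 to 2.27), H2A (3.73 to 3.99) and H3 were above the untreated ones, and that of H2B overlapped. At 45 min those of H2A, H2B and H3 were below. At 16 h the median change of this ratio over all tested genes was 0.0696 on the log2 scale, against 0.323 for the H3 sum and 0.173 for H2A.

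**Figure D5:**
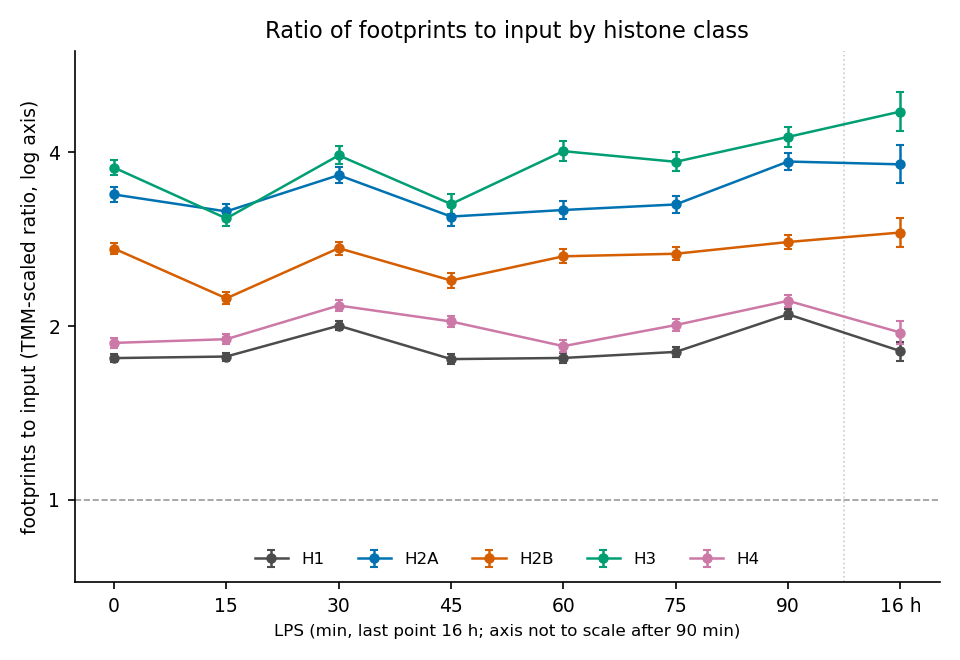
Ratio of footprints to input (TMM-scaled, log axis) for the summed counts of each histone class by time of LPS; points are 1 pair of libraries each and bars are 95% counting intervals. H3 and H2A lie highest and H1 and H4 lowest, and H2B and H3 dip at 15 min.

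Single genes ranged more widely than the classes. Hist1h4n had the highest mean ratio (3.84 on the log2 scale), from 20 to 43 input counts and 226 to 724 footprints over the first 90 min, and Hist1h2ap (2.998) and Hist1h3d (2.95) came next. Hist1h2ap had 495 input counts and 3844 footprints untreated. At the other end Hist1h3h (-0.81, adjusted p = 5.1e-06) had 99 input counts and 58 footprints untreated, and Hist1h2bl (-0.49, adjusted p = 0.0019) had 69 and 43. Hist1h4b, at 0.13, was not called (adjusted p = 0.096). Members of 1 class differed more than 10-fold in this ratio, Hist1h3d (8.06 untreated) and Hist1h3h (0.64) being both H3. The split of reads between these near-identical copies is uncertain, so such differences cannot be told apart from how reads were assigned.

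Per kilobase of coding sequence, footprints showed H4 ahead of the other core histones. Relative to H4, untreated footprints per kilobase were 0.798 for H2B, 0.683 for H1, 0.541 for H2A and 0.493 for H3. At 16 h the values were 0.704, 0.674, 0.472 and 0.505, with H3 now just above H2A. Each is a sum over the tested genes of a class only.

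The ratio of footprints to input changed little with time. Over 0 to 90 min 1 of 55 genes was called higher and none lower (1.11% of all genes were called higher and 0.136% lower), and the median was 0.138, against -0.0473 over all tested genes. The gene was Hist1h4j, which shares the stem beginning GGTCC with Hist1h4b. Its input counts were 1040, 995, 732, 611, 546, 611, 582 and 167 from 0 min to 16 h, and its footprints were 1453, 1588, 1371, 1035, 1034, 1300, 1333 and 309. Input thus declined to 60 min and stayed there, whereas footprints had returned near their untreated count by 75 and 90 min. The ratio was 1.53 untreated and 2.77 at 90 min, a change of 0.76 (SE 0.13, adjusted p = 0.011). Without the block the adjusted p was 0.4, and it was 0.39, 0.065 and 0.07 without the 0, 75 and 90 min pairs. Hist1h4k, with ratios of 1.08 untreated and 1.85 at 90 min, gave 0.74 but was not called (adjusted p = 0.17). Leaving out the 30 min pair gave 8 called histone genes, 7 higher and 1 lower, where the calls over all genes went from 106 higher and 13 lower to 174 and 123 (1.84% and 1.30%).

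At 16 h no histone gene was called in the ratio by edgeR (38 genes, 0.399%, were called in all) and DESeq2 called none either. The median was 0.132, against 0.0712 over all tested genes. The values ran from -1.06 in Hist3h2ba (SE 0.39, adjusted p = 0.32) to 0.85 in Hist1h2ap (SE 0.27, adjusted p = 0.24). Hist1h2ap had a ratio of 8.49 untreated and 14.3 at 16 h, on 48 input counts, and Hist3h2ba had 1.68 and 0.81, on 36 input counts and 26 footprints. At an unadjusted p under 0.05, 8 of the 55 (14.5%) were found, 6 higher and 2 lower at 16 h, where 10.5% of all tested genes were.

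Properties other than the name that varied among the genes were how far their coding sequence is shared with other genes and how much of the transcript is coding. A median of 16.6% of the 29-base words of a coding sequence were found in no other gene. In 5 genes none were, in 12 genes under 10% were, and in 5 genes at least 70% were. By class median H1 genes were the most distinct (70.1%, from 64.4 to 99.3%). The class medians of H2A and H3 were lowest, at 11.3% and 11.4%. No H3 gene was above 20.0% or below 4.2%, and the 5 genes at 0 belonged to H2A, H2B and H4. The fall at 16 h in input was present at each level: the median was -3.13 for the 12 genes under 10%, -2.75 for the 34 genes from 10 to 50%, and -2.52 for the 9 genes of 50% or more. The change of footprints at 15 min was not so even, with medians of -0.39, -0.04 and 0.06 for the same groups, and the part of read assignment in it was not tested. Across the 55 genes, the mean log2 ratio of footprints to input from 30 min to 16 h correlated with the footprint change at 15 min at r = -0.465 (rho = -0.470). Within classes of core histones that r was -0.118 for H2A (rho = -0.132), -0.529 for H2B, -0.688 for H3 and -0.524 for H4, where rho was -0.0699. With the coding share of the transcript the same mean ratio gave r = -0.371 over the 55 genes, from -0.0442 within H4 to -0.815 within H3. These are descriptions across genes that share libraries and reads.

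Among factors that make, process and degrade histone mRNA, as many rose as fell over the first 90 min. Of 41 listed factors 37 were tested, and in input 5 rose and 5 fell within 90 min, against 14.6% of all genes rising and 11.4% falling. At 16 h 19 fell and 5 rose (median -0.265), where 27.7% of all genes fell and 27.6% rose. Slbp, which encodes the stem-loop binding protein, had input counts of 1089, 1098, 1127, 1324, 1387, 1211, 1120 and 612. The counts were highest at 45 and 60 min, but the change of 0.37 missed the threshold (adjusted p = 0.059). By 90 min Slbp was near its untreated count, while the summed histone share of input stayed level from 45 to 90 min. In footprints Slbp had 1906, 1793, 1987, 2010, 2078, 2075, 1927 and 1074 and rose by 0.37 (adjusted p = 0.032). That call did not survive scaling by total counts (0.15, adjusted p = 0.41), nor did it pass without the 0, 15, 45, 60 or 75 min library (0.316 to 0.365). At 16 h the input of Slbp fell by 0.61 (adjusted p = 0.0021) and its footprints by 0.66 (adjusted p = 0.00046), a smaller change than in any tested histone gene. Npat, a coactivator of histone gene transcription, had input counts of 1089, 1128, 1243, 1224, 1190, 1073, 963 and 729 and fell at 16 h by 0.41 (adjusted p = 0.0025). Its change within 90 min was 0.24 (adjusted p = 0.036), a call lost without any one of the 0, 45, 60, 75 or 90 min libraries (0.16 to 0.24). In footprints Npat, from 400 untreated to 312 at 16 h, was not called (adjusted p = 0.20).

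Others of these factors fell further at 16 h. Ccne2, a cyclin E gene, had 612 input counts untreated, 386 at 90 min and 186 at 16 h and fell by 1.53. Casp8ap2 (FLASH), which takes part in 3′ end processing, went from 1309 to 844 at 90 min and 723 at 16 h, falling by 0.53 within 90 min and by 0.71 at 16 h. The Sm protein genes Snrpb (1892 to 884 at 16 h, -0.94) and Snrpf (993 to 474, -0.89) fell, and the 5′-to-3′ exonuclease gene Xrn1 rose (521 to 839, 0.79).

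Replication-independent variants, whose mRNAs are made outside S phase too and are mostly polyadenylated, split. Of 9 tested of 11 listed, none fell and 1 rose in input within 90 min, where 11.4% of all genes fell and 14.6% rose. At 16 h 6 fell and 1 rose, where 27.7% of all genes fell and 27.6% rose. H2afz, which encodes H2A.Z, had input counts of 5342, 5169, 4783, 4797, 4980, 4761, 4358 and 1473 and fell by 1.69 at 16 h. H2afx fell by 1.91 (1860 to 454), Cenpa, the centromeric H3, by 1.83 (469 to 114), and H2afv by 1.53 (228 to 68). The exception was H3f3b, a gene for H3.3, with 1291, 1343, 1721, 2091, 2195, 2259, 2125 and 1917 input counts. It rose by 0.98 within 90 min (SE 0.10, adjusted p = 0.00011) and was still up by 0.82 at 16 h. Its footprints rose by 1.28, from 2537 to 4914 at 75 min. H3f3b mRNA thus climbed over the interval in which all 10 replication-dependent H3 genes fell. H3f3a, also a gene for H3.3, did not climb and was not called in input within 90 min. Its input counts were 2367, 2205, 2054, 2099, 2134, 1963, 1894 and 1358 from 0 min to 16 h. Its footprints were 5289 untreated, 3921 at 90 min and 3356 at 16 h.

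Chaperones and the DNA replication genes changed mostly late. Of all tested genes, 11.4% fell in input within 90 min and 27.7% at 16 h. Of 20 tested histone chaperone genes, 1 rose and 1 fell in input within 90 min, and 15 fell and 2 rose at 16 h (median -0.625). Asf1b fell by 1.99 (464 to 112 counts), Mms22l by 1.16, Chaf1b, a subunit of the replication-coupled assembly factor CAF-1, by 1.15, and Rbbp7 by 1.11. Daxx, a chaperone of H3.3, rose by 2.38, from 322 counts to 1522. Of 47 DNA replication genes, 2 rose and 6 fell within 90 min, and 46 fell at 16 h (median -1.19). In footprints 8 of the 47 fell and 3 rose within 90 min, where 8.30% of all genes fell and 12.2% rose. At 16 h 45 fell in footprints, where 24.2% of all genes fell. Tk1 fell by 2.52 at 16 h (1203 to 187), Dut by 2.08 (1393 to 297), Pole by 1.74 (1264 to 340), Mcm5 by 1.57 (2934 to 913) and Mcm7 by 1.54 (2696 to 837). Within 90 min Tk1 already fell by 0.58 (1203 to 744), while Mcm5 had 2934 and 2799 counts and was not called. Early on, then, 39 of 55 histone genes and 6 of 47 DNA replication genes fell in input, where 11.4% of all tested genes fell. In input the replication genes were thus near the share of all genes, and the difference between the 2 lists was not tested.

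Every library was deposited at 6702930 to 6702932 counts, so the original depth of the libraries is not known and the precision of a gene rests on its own counts. Macrophage markers were present throughout (all 8 in the table, 15375 to 16816 summed input counts per library), whereas those of fibroblasts summed to at most 5, of epithelium to at most 1 and of lymphocytes to at most 8, from the 1, 2 and 2 of 4 listed genes that were in the table. Relative to untreated, the log2 TMM factor was -0.113 at 90 min and -0.143 at 16 h in input. In footprints it was -0.121 to -0.275 from 30 min to 90 min and -0.116 at 16 h. A lower factor raises the scaled values, so changes from untreated lay higher with TMM than with scaling by total counts. With scaling by total counts the histone genes called lower were 44 and 48 within 90 min in input and footprints, and 55 and 55 at 16 h. The shares of all genes called lower within 90 min were then 19.6% and 27.4%, against 11.4% and 8.30% with TMM. At 16 h they were 35.8% and 29.5%, against 27.7% and 24.2%.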

How the data were processed

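Footprint and input libraries of RAW264.7 cells, 1 of each per time point, formed 1 gene table. The authors deposited whole-number counts of reads per gene and, per the file headers, a DESeq2-normalised signal, which was the counts divided by 1 factor per library (spread 9.9e-15) and was not used further. Bowtie 0.12.8, DESeq2 1.18.1 and mm10 come from the submitters' processing notes. How reads with several matches, strand or duplicates were treated, and why all libraries sum to 6702930 to 6702932 counts, is not given in those sources. Fragments of 25 to 35 nt were kept in both materials, per the labels' protocols.

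Genes with at least 10 counts in 4 of 8 libraries of each material were fitted with edgeR 4.0.16 (TMM factors, quasi-likelihood F-test, R 4.3.3, limma 3.58.1) and Benjamini-Hochberg adjustment over all 9529 genes at a threshold of 0.05. Each material was fitted with linear and quadratic minutes over 0 to 90 min and a separate 16 h term (4 residual degrees of freedom). Size over 0 to 90 min means how far the fitted curve departs most from 0 min. The ratio of footprints to input, called density, was fitted over 16 libraries in blocks of time points, since both libraries of a time point come from 1 lysate per the labels' protocols (4 residual degrees of freedom for changes, 7 for the mean). With 1 library per group, p-values measure scatter about the curve. The code was tested on simulated data. Class sums carry exact 95% counting intervals and no test.

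Genes were named by rule: the 4 with most counts per class, the 3 largest and 3 smallest falls at 16 h in each material, the 3 highest and 3 lowest mean densities, every gene called against the majority or in density change, the 5 with the smallest p of each other list, and Slbp and Npat. Others were named after their values were seen, to illustrate a count or an exception. The members, lists and rules were chosen with earlier results of these data known. Alternatives were other scalings, DESeq2 1.42.0, other count filters, other time terms, no block and leaving out each time point. Sequences came from GENCODE M21 transcripts (all 55 genes matched) and RefSeq promoter windows of GRCm38.p6 (50 matched).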

Additional observations from a re-analysis of the deposited data

Results flagged for a closer look

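Hist1h4j differed between the materials in its course over the first 90 min: its footprints, relative to input, were higher by 0.757 on the log2 scale (SE 0.13, adjusted p = 0.011 by edgeR's quasi-likelihood test of the difference itself). It was the only one of the 55 tested histone genes past the threshold with all libraries and the time point as a block, and the call was lost without the 0, 75 or 90 min pair of libraries (0.581, 0.76 and 0.628).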

How the results depend on the processing

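The counts of histone genes lower at 16 h, 55 of 55 in both materials, were the same with other scalings, DESeq2, other time terms and without each earlier time point; the stricter count filter left 52 genes and called all 52, and without a filter 56 were called. Over 0 to 90 min, leaving out each time point in turn gave 34 to 41 genes in input (39 with all) and 25 to 36 in footprints (36 with all). With all libraries 11.4% and 8.30% of all genes fell. A linear term alone gave 22 in input and 6 in footprints, where 11.2% and 6.58% of all genes fell. The square root of time gave 17 and 14, where 8.78% and 6.17% fell. The cause was not tested. For the density change over 0 to 90 min, 1 gene with all libraries, the square root of time and a cubic curve each gave 2, the fit with no replicate block gave 0, and leaving out each time point gave 0 to 8 (8 without 30 min). The replicate block here is the time point. Without it the mean density called 40 histone genes and not 54, and the share of all genes called in that fit is not given here. Among the genes followed under each alternative, signs that reversed were Npat in footprints (scaling by total counts -0.243, without 0 min -0.0505) and in input (linear term -0.0285), Hist1h4b in mean density (scaling by total counts -0.0925), Hist1h2bc in footprints (linear term 0.0964, without 0 min 0.703) and Hist1h2be in footprints (without 0 min 0.318), where leaving out each time point ranged from -0.882 to 0.703 for Hist1h2bc, from -0.752 to 0.318 for Hist1h2be and from -0.0505 to 0.138 for Npat; the cause was not tested. In footprints over 0 to 90 min, 2 further histone genes were called higher under an alternative, Hist1h4c with a cubic curve (0.291, adjusted p = 0.047, against -0.0942) and Hist1h2bj without 0 min (0.338, against -0.798). Of the other values for single named genes, 1483 kept their direction and side of the threshold, 56 lost it and 20 gained it. Scaling by total counts changed the split of all called genes from 2632 higher and 2637 lower to 2110 and 3411 at 16 h in input, from 2469 and 2307 to 2068 and 2812 at 16 h in footprints, from 1390 and 1088 to 990 and 1863 within 90 min in input, from 1160 and 791 to 739 and 2608 within 90 min in footprints, and from 4166 and 3950 to 3084 and 4809 in mean density. Low counts limit the least abundant genes at 16 h, where Hist1h2ba had 4 input counts and 6 footprints. No result here has a replicate library.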
